A study of Saccharomyces cerevisiae with 42 samples.

Results

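The first minutes of heat were compared between a yeast strain lacking both sphingoid base kinases and its parental strain. The 8 arrays used, of 42 in the series, are all those of these strains after 5 and 10 min at 39 C, with 2 arrays for each strain and time. They were chosen by strain and time from the labels, without any measured value. Saccharomyces cerevisiae grew in YPD, a rich medium with glucose, and was taken in log phase. Each array was hybridised with biotin-labelled total RNA. All strains are MAT α and carry HMLa, his4, trp1, rme1, ura3-52 and leu2-3 112. The parental strain is named JK939a, the double deletion carries lcb5::KanMX and lcb4::KanMX, and another strain, used below for comparison, carries dpl1:KanMX. The labels do not say whether replicates 1 and 2 came from separate cultures, or how many clones of each deletion were used, so p-values measure the spread between these arrays, which may be technical. RNA came from whole cultures, so a change in the mix of cells and a change within each cell cannot be told apart.

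Sphingolipids are membrane lipids built on long-chain sphingoid bases. In yeast, serine palmitoyltransferase makes these bases, Lcb4 and Lcb5 phosphorylate them, and the phosphates are either cleaved by the lyase Dpl1 or dephosphorylated by Lcb3 and Ysr3. Heat is known to raise sphingoid bases and their phosphates transiently in the first minutes, the period sampled here, and a strain without both kinases makes no sphingoid base phosphate by this route. The comparison asks how transcript levels in early heat differ when that step is missing.

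Expression is given as log2 RMA values, so that a difference of 1 is 2-fold, and differences are those of the double deletion minus the parental strain, averaged over 5 and 10 min with time and replicate number as blocks. The spread was estimated with limma from all 42 arrays, and a gene was called when its p, Benjamini-Hochberg adjusted over the 5656 genes tested, was under 0.05. The median SE of a difference was 0.18. The SE and p-values treat arrays as independent beyond these blocks. With the replicate block left out, arrays of the same strain and replicate number had a consensus correlation of 0.32, so the SE may be too small. Array medians lay between 5.64 and 5.73 on the 8 arrays, and the median difference over all genes was 0.01. Replicate 2 differed from replicate 1 in RNA measures. The 18S ribosomal RNA probe set read 12.89 to 13.17 on the replicate 1 arrays of both strains and 5.16 to 9.74 on those of replicate 2. The SRB4 control gene's 3' probe set exceeded its 5' probe set by 0.38 to 0.71 in replicate 1 and by 1.65 to 3.73 in replicate 2. The highest of these values, 3.73, was that of the double deletion at 10 min in replicate 2, against at most 2.44 on the other 41 arrays of the series, and the same array was highest for ACT1, at 1.501 against at most 1.10. The named genes called without that array are listed below. Markers fitted the labelled mating type: the α-factor genes MF(ALPHA)1 and MF(ALPHA)2 read 8.46 to 12.00 on the 8 arrays, and the a-cell genes MFA1 and STE2 read 3.04 to 4.47. Of 5 α-cell genes 1 was called lower in the double deletion (MF(ALPHA)2, -0.99), of 7 a-cell genes 1 higher (STE6, 0.42), of 9 haploid genes 1 higher (HO) and of 8 sporulation genes 0, where called is defined by the threshold above. Over all genes 3.93% were called higher and 3.22% lower. Apart from HO, the cell type genes named here were picked after their values were seen.

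The deletions were visible in both genes. LCB5 read 7.31 and 7.12 at 5 min and 7.32 and 7.53 at 10 min in the parental strain, replicate 1 first, and 2.99, 3.47, 3.14 and 3.06 in the double deletion. LCB4 read 4.89, 5.10, 5.04 and 5.15 in the parental strain and 2.84, 3.00, 3.39 and 3.61 in the double deletion. The strains did not overlap for either gene. The differences were -4.16 ± 0.20 (SE, n = 4 arrays a strain) for LCB5 and -1.83 ± 0.14 for LCB4, with limma adjusted p of 1.26e-13 and 2.31e-09. The double deletion readings of these genes, 2.84 to 3.61, are those of probe sets whose gene is deleted, so these differences measure the parental signal above that level and are no fold change. The files hold no detection calls, and among the other called named genes KDX1, NFG1, UTP14, KEI1, DHR2, PCL1 and ATG29 had at least 1 array at or below the top of that range. LCB5 also read higher in heated than unheated parental cells, at 5.52 and 4.98 before heat, whereas the double deletion read 2.93 and 3.48 there. DPL1 differed by 0.03 ± 0.21 (adjusted p = 0.939), and the markers LEU2, URA3 and TRP1 by 0.01, -0.26 and -0.26, none of them called. The remaining marker, HIS4, was called lower, at -0.17 in replicate 1 and -2.65 in replicate 2, and is taken up below with histidine synthesis. The signs for DPL1 and LEU2 changed under median centring of the arrays, to -0.0006 and -0.03.

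In all, 404 of 5656 genes were called (7.14%). Of these, 222 were higher in the double deletion (3.93%), by a median of 0.62 and at most 1.64, and 182 were lower (3.22%), by a median of -0.69. Differences of at least 2-fold made up 63 of them (1.11% of all genes), 21 higher (0.371%) and 42 lower (0.743%). The sign was the same in both replicate numbers for 403 of the 404, as the choice by their mean favours, but the sizes were not. Over all 5656 genes the differences of replicates 1 and 2 correlated at 0.44. Called higher genes differed by a median of 0.49 in replicate 1 and 0.79 in replicate 2, and called lower genes by -0.44 and -0.96. For 96 of the 182 lower genes, the difference in replicate 2 was over 2 times that in replicate 1, and for 74 of the 222 higher genes. The count rests on the replicate block: without it 62 genes were called, and with the course of each strain and replicate as a random block in its place 6. The count also rests on the spread taken from all 42 arrays. A fit of the 8 arrays alone, which kept the replicate block but left 4 residual degrees of freedom, called 2 (0.0354%), LCB4 and LCB5. Single arrays mattered to the count as well, with 25 genes called without the double deletion's replicate 2 array at 5 min and 110 without that at 10 min, 79 and 93 without the parental replicate 2 arrays, and 170 without the parental replicate 1 array at 10 min. It was 612 and 777 without the double deletion's replicate 1 arrays at 5 and 10 min. The named genes below follow a fixed rule, given in the processing section, and 86 of them were called. Of these, 12 were called without the double deletion's replicate 2 array at 5 min, and the same 12 were called whichever 1 of the 8 arrays was left out: LCB4, LCB5, KDX1, NFG1, CRG1, PIR3, GSC2, HO, SMF1, SMY1, ATP5 and ANB1. With the course as a random block, LCB4, LCB5, KDX1, NFG1 and CRG1 were called and the other 7 were not, and with centring on the hybridisation controls LCB5 alone of the 12 was. Without the double deletion's replicate 2 array at 10 min 27 were called, those 12 and PDR15, PDR10, RLM1, QDR2, HIS1, TRP2, KEI1, QCR7, STD1, ERG28, HSP150, PRI2, PCL1, SWE1 and RAD50. The other 59 named calls were lost without that array.

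**Figure D1:**
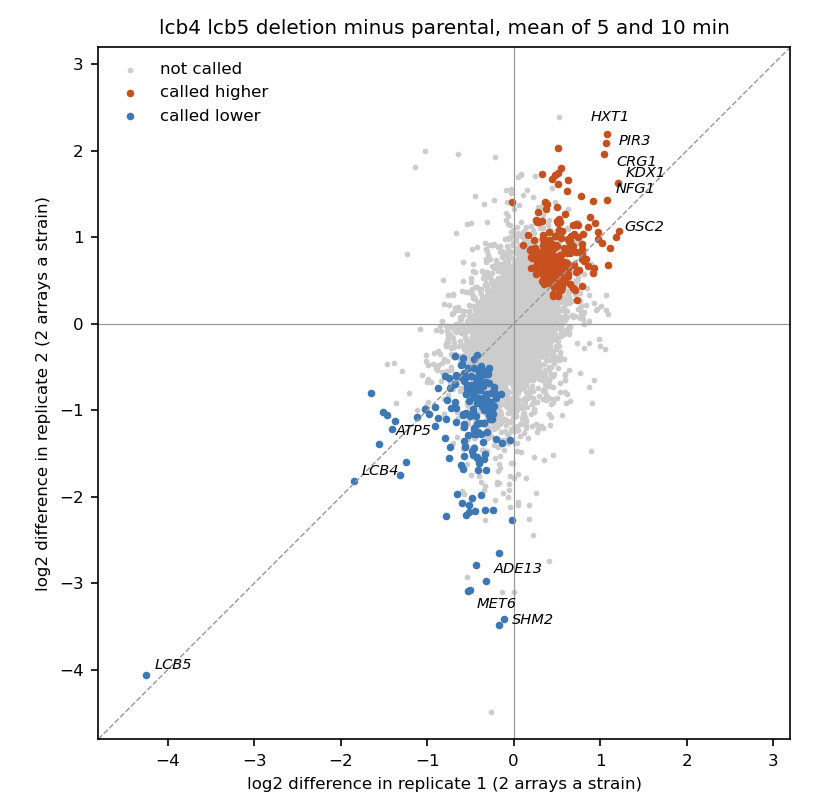
Each point is 1 of 5656 genes, with its log2 difference (double deletion minus parental, mean of 5 and 10 min) in replicate 1 on the x axis and in replicate 2 on the y axis; the dashed line marks equal differences. LCB4 and LCB5 lie on that line. Of the 222 called higher genes 221 lie above 0 in both replicates, as the choice by the mean of both favours. Many called lower genes, such as SHM2 and MET6, lie much closer to 0 in replicate 1 than in replicate 2.

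Coding length moved with the difference. It was taken as the gene length listed in RefSeq. Of these lengths 97.3% are divisible by 3, so some are not exact coding lengths. Over 5486 protein-coding genes, which share the same arrays and are not independent, Spearman's rho between the difference and coding length was 0.32, at 0.42 in replicate 1 and 0.21 in replicate 2, and the corresponding value for the dpl1 strain was 0.08. Genes with coding lengths up to 468 bases had a median difference of -0.13 (556 genes), and those of at least 2840 bases one of 0.22 (549 genes). Called higher genes had a median coding length of 2120 bases and called lower genes one of 780, against 1250 over all protein-coding genes. With the trend on length removed, 196 of the 395 called protein-coding genes were still called, and 239 genes in all. Of the 86 called named genes, 62 were called with that trend removed. The 24 that were not are UTP14, COX4, AAC3, YPK2, KEI1, QCR7, QCR8, IDP1, SSE2, ATH1, GDB1, PIG1, YAP1, DHR2, RPL21A, RPS14A, RPS25A, CAF20, MHT1, FIT2, POL2, SWE1, HSL1 and LHS1.

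**Figure D2:**
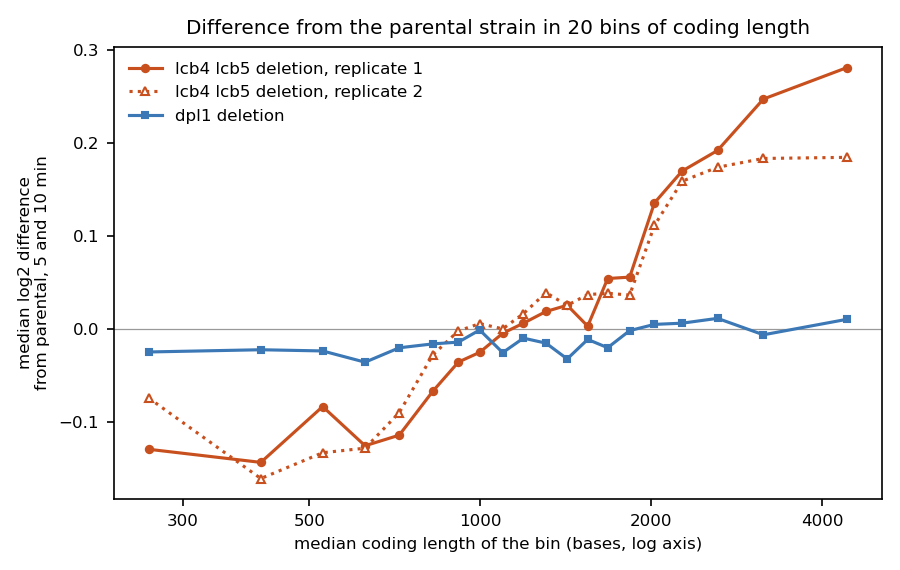
Median log2 difference from the parental strain (y axis, mean of 5 and 10 min) in 20 bins of protein-coding genes by coding length (x axis, bases, log axis), for the double deletion in replicate 1 and replicate 2 and for the dpl1 strain. Both double deletion lines climb from below 0 for short genes to above 0 for long genes, while the line of the dpl1 strain stays near 0.

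Of the 33 lists of pathways and complexes, the cell wall list had the most genes called higher. Of its 46 measured genes for wall structure and the cell wall integrity pathway, 8 were called higher and 1 lower (3.93% and 3.22% of all genes), and 11 had both double deletion arrays above both parental arrays at each time (8.52% of all genes did). The list's median difference was 0.22, against 0.01 over all genes, and its median coding length was 1376 bases. With the trend on length removed the counts were again 8 and 1, without the double deletion's replicate 2 array at 10 min they were 4 and 0, and without the one at 5 min 2 and 0.

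PIR3 encodes an O-glycosylated protein bound to the wall. It read 5.45, 5.31, 6.14 and 6.70 in the parental strain at 5 and 10 min and 5.88, 7.17, 7.85 and 9.01 in the double deletion. The strains did not overlap at either time, and the difference was 1.58 ± 0.24 (limma adjusted p = 0.000528). GSC2 encodes the catalytic subunit of glucan synthase that is used under stress. It read 6.87, 6.59, 7.09 and 7.73 in the parental strain and 8.13, 8.28, 8.20 and 8.04 in the double deletion, with no overlap, and the difference was 1.09 ± 0.19 (adjusted p = 0.0018). Its 4 double deletion values ranged from 8.04 to 8.28, whereas the parental values were higher at 10 min than at 5 min in both replicates.

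RLM1 encodes a transcription factor activated by Slt2, the last kinase of the cell wall integrity pathway. It differed by 1.14 ± 0.22 (adjusted p = 0.00333), with 0.63 in replicate 1 and 1.66 in replicate 2. HSP150, another wall protein, differed by 0.65 ± 0.14 (adjusted p = 0.00769). PRM5, a membrane protein gene known as an Rlm1 target, differed by 1.12 ± 0.35 (adjusted p = 0.047, and 0.223 without the double deletion's replicate 2 array at 10 min). Further called members, picked here after their values were seen, were PST1 (wall protein, 1.06), EXG1 (an exoglucanase, 0.63), BCK1 (a kinase upstream of Slt2, 0.55) and, on the lower side, TIR3 (a wall mannoprotein, -0.66). SLT2 itself, also picked afterwards, differed by 0.65 ± 0.23 and was not called (adjusted p = 0.0829).

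KDX1, a relative of SLT2 that is known to be induced by wall stress, was not in the list. It read 3.59, 3.53, 3.81 and 3.34 in the parental strain and 4.76, 5.47, 5.03 and 4.65 in the double deletion, with no overlap. The difference was 1.41 ± 0.20 (limma adjusted p = 0.000283), at 1.20 in replicate 1 and 1.62 in replicate 2. On 3 of the 4 parental arrays KDX1 read within the range of the deleted genes, so its fold change has no defined size. NFG1, a negative regulator of filamentous growth, read 3.82, 3.91, 4.11 and 3.41 in the parental strain and 5.49, 5.52, 4.60 and 4.68 in the double deletion. It differed by 1.26 ± 0.16 (adjusted p = 4.72e-05), and the groups did not overlap, with 1 parental array in the range of the deleted genes. CRG1, a methyltransferase known for resistance to cantharidin, read 4.68, 4.25, 6.16 and 5.88 in the parental strain and 5.84, 6.04, 7.09 and 8.01 in the double deletion. It differed by 1.50 ± 0.26 (adjusted p = 0.00208), and the strains were apart within each time, although the parental arrays at 10 min reached the double deletion arrays at 5 min.

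**Figure D3:**
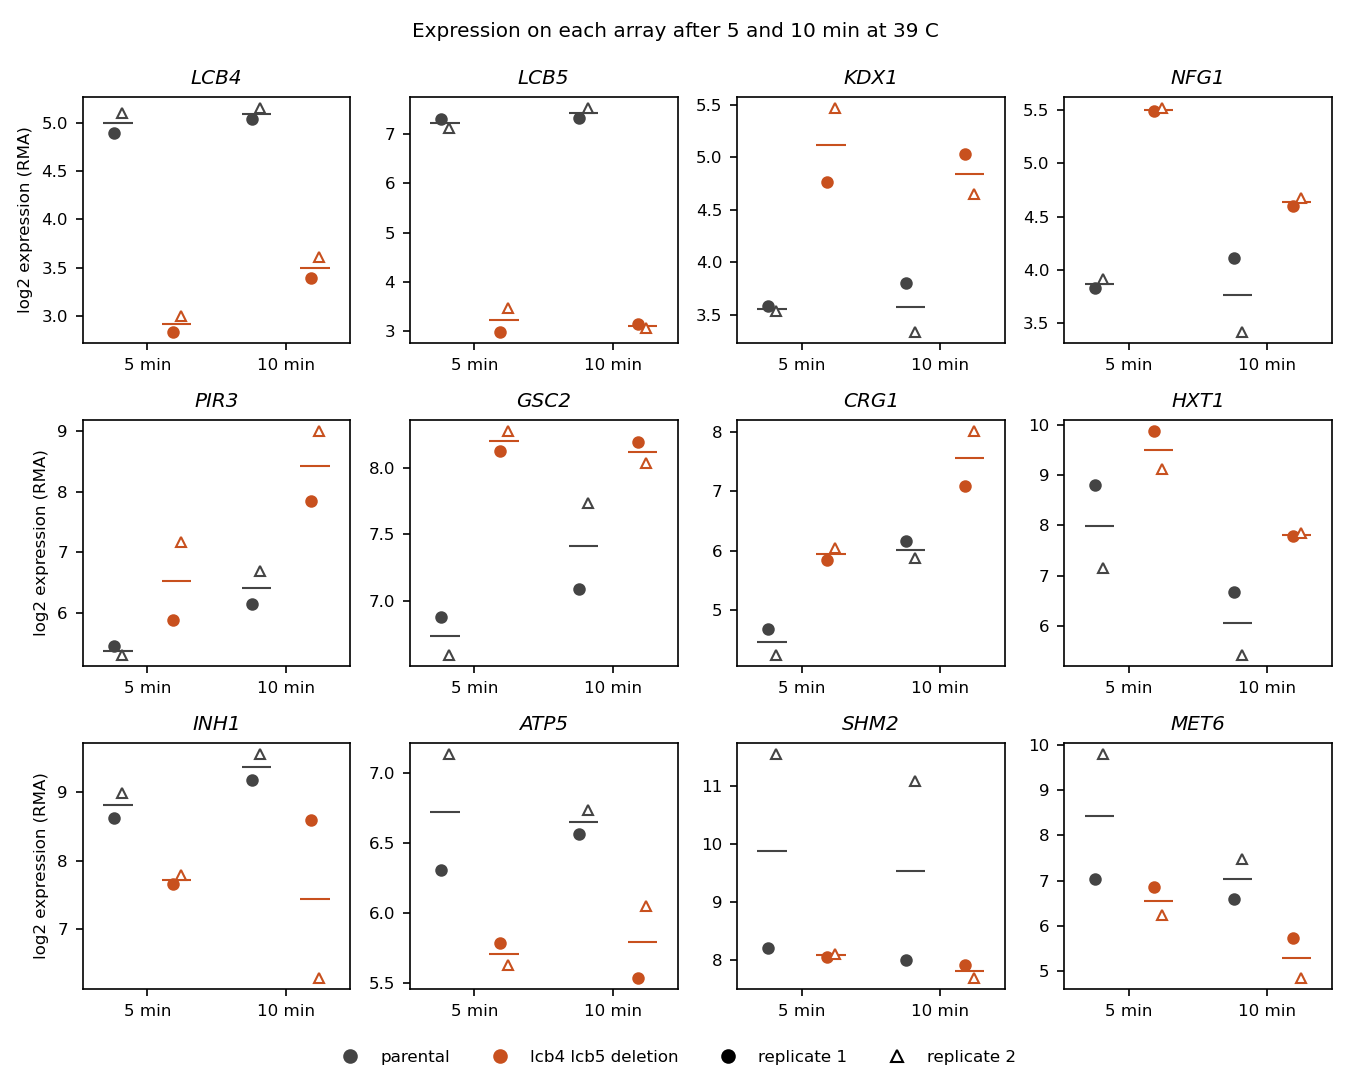
Log2 expression (y axis) of 12 genes on each of the 8 arrays at 5 and 10 min (x axis), with filled circles for replicate 1, open triangles for replicate 2 and bars for the mean of 2 arrays. KDX1, NFG1, PIR3 and GSC2 are apart between the strains at both times, whereas for SHM2 the parental replicate 2 arrays stand at 11.55 and 11.08 and all other arrays between 7.69 and 8.21.

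HXT1, a low-affinity hexose transporter of a family with closely related copies, had the highest value of the called genes at 1.64 ± 0.44 (limma adjusted p = 0.026). It was called in 4 of the 8 fits that left out 1 array, with an adjusted p of 0.111 without the double deletion's replicate 2 array at 10 min and of at most 0.139, and it was not called without the replicate block (0.126) or with the random block (0.254). It read 8.80, 7.15, 6.68 and 5.42 in the parental strain and 9.87, 9.11, 7.78 and 7.85 in the double deletion, so that the strains were apart at each time while both read lower at 10 min than at 5 min. STD1, a regulator in glucose sensing, differed by 0.92 (adjusted p = 0.0132), and HXT4, a transporter of higher affinity, by -1.61 (adjusted p = 0.039). These were the called members of 19 hexose transport and phosphorylation genes, 2 higher and 1 lower, against 3.93% and 3.22% of all genes.

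The drug efflux pump genes PDR15 and PDR10 differed by 1.18 ± 0.23 and 1.10 ± 0.21 (both adjusted p = 0.00388). PDR15 read 7.76, 7.75, 8.58 and 8.94 in the parental strain and 8.42, 10.13, 9.02 and 10.18 in the double deletion, and the 2 double deletion values over 10 are both of replicate 2. Picked after their values were seen, PDR3, a transcription factor of these pumps, and PDR5, the major pump, differed by 1.06 and 0.93 and were called (adjusted p = 0.00647 and 0.0169), and SNQ2, another pump gene, differed by -0.07 and was not. YPL088W, a putative aryl alcohol dehydrogenase, differed by 1.27 ± 0.29, at 0.52 in replicate 1 and 2.03 in replicate 2 (limma adjusted p = 0.0763 without the double deletion's replicate 2 array at 10 min). SRL3, known as a suppressor of the lethality of rad53 mutants, differed by 1.07 ± 0.26 (adjusted p = 0.0152, and 0.0759 without that array). It read 6.24, 5.93, 7.28 and 6.98 in the parental strain and 6.99, 7.38, 7.76 and 8.59 in the double deletion, apart at each time. SMF1, a transporter of manganese and other divalent metals, differed by 0.85 ± 0.15 (adjusted p = 0.00298), with nearly equal sizes of 0.79 and 0.92 in the replicates.

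Among genes of G1 and S phase, 3 of 42 were called higher and 1 lower, against 3.93% and 3.22% of all genes, so the list is close to the background. PCL1, a G1 cyclin, differed by 1.02 ± 0.21 (limma adjusted p = 0.00709; its parental arrays at 10 min read within the range of the deleted genes), PRI2, a subunit of DNA primase, by 0.78 ± 0.15 (adjusted p = 0.00333), and POL2, the catalytic subunit of DNA polymerase epsilon, by 0.75 ± 0.20 (adjusted p = 0.0242). RNR4, a ribonucleotide reductase subunit, was the lower one at -0.47. HO, the mating-type endonuclease, which is transcribed in late G1 of mother cells, read 5.91, 6.46, 4.57 and 4.59 in the parental strain and 7.70, 7.64, 5.21 and 5.56 in the double deletion. It differed by 1.14 ± 0.22 (adjusted p = 0.00399), and the strains were apart at each time. In the G2 and M phase list, SWE1 and HSL1, an inhibitory kinase of the cell cycle and a regulator of it, were called higher at 0.55 and 0.66, 2 of 30 genes. SMY1, a kinesin-like protein, and RAD50, a subunit of a DNA repair complex, also differed, by 0.91 and 0.75 (adjusted p = 0.0016 and 0.00647).

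Of the other sphingolipid genes few differed, where 3.93% of all genes were called higher and 3.22% lower. Besides the deleted pair, ORM1 was the one called gene of the 14 for sphingoid base synthesis and phosphate turnover. It encodes an inhibitor of serine palmitoyltransferase, read 8.48, 8.82, 8.44 and 8.37 in the parental strain and 7.96, 7.69, 8.02 and 7.46 in the double deletion, and differed by -0.75 ± 0.16 (limma adjusted p = 0.0082). The groups did not overlap, but without the double deletion's replicate 2 array at 10 min its adjusted p was 0.0612. The catalytic subunit genes LCB1 and LCB2 differed by 0.39 ± 0.14 and 0.13 ± 0.13, the phosphatase genes LCB3 and YSR3 by 0.42 ± 0.20 and 0.34 ± 0.18, and ORM2 by 0.01 ± 0.24, none of them called and all picked after their values were seen. Of 27 genes for ceramide and complex sphingolipids, YPK2, a kinase that controls sphingolipid synthesis, was called higher at 0.63 ± 0.18, and KEI1, a subunit of inositol phosphorylceramide synthase, lower at -0.70 ± 0.21 (adjusted p = 0.039 and 0.0458).

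Of 32 respiratory chain and HAP factor genes, 7 were called lower and 0 higher, where 3.22% of all genes were called lower and 3.93% higher. Of the 32 values 27 were negative, against 2747 of 5656 over all genes, with a median of -0.50. The medians were -0.30 in replicate 1 and -0.68 in replicate 2. Of 17 genes for the ATP synthase and its inhibitors, 3 were called lower and 0 higher, with a median of -0.49. These lists hold short genes, with median coding lengths of 506 and 348 bases. With the trend on length removed, 2 and 3 of them were called, and without the double deletion's replicate 2 array at 10 min 1 and 1, and without the one at 5 min 0 and 1.

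ATP5, the stalk subunit of the ATP synthase, read 6.31, 7.14, 6.57 and 6.74 in the parental strain and 5.79, 5.63, 5.53 and 6.05 in the double deletion. All 4 double deletion values lay below all parental ones, and the difference was -0.94 ± 0.17 (limma adjusted p = 0.00314). INH1, which inhibits ATP hydrolysis by the enzyme, read 8.62, 8.99, 9.18 and 9.55 in the parental strain and 7.65, 7.80, 8.58 and 6.29 in the double deletion. It differed by -1.50 ± 0.42 (adjusted p = 0.0316), and without the low array at 10 min by -0.98 (adjusted p = 0.201). ATP17, a subunit of the membrane part of the enzyme, differed by -0.96 ± 0.25 (adjusted p = 0.0242, and 0.15 without that array).

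COX6, a subunit of cytochrome c oxidase, differed by -0.98 ± 0.23 (limma adjusted p = 0.0154), and COX4, another subunit, by -1.25 ± 0.37 (adjusted p = 0.041). Without the array named above these values were -0.69 and -0.78, and neither was called. QCR7, QCR8 and QCR2, subunits of the cytochrome bc1 complex, differed by -0.65, -0.60 and -0.63 (adjusted p from 0.0194 to 0.0261). QCR7 was the member that stayed called without that array, at -0.72. The remaining called members, picked after their values were seen, were QCR10 (-1.05) and COX12 (-0.57), whereas HAP4, the regulatory subunit of the HAP activator, differed by 0.34 and was not called. In the TCA and glyoxylate cycles, IDP1 and KGD2 were called lower at -1.01 and -0.65, 2 of 21 genes, against 3.22% of all genes. The list's median was -0.07. That median turned to 0.09 under centring on the hybridisation controls, which moved the median of all genes to 0.18.

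ANB1 and AAC3, genes known to be repressed by oxygen, were also lower. ANB1, a form of the translation factor eIF5A, read 5.74, 6.20, 5.35 and 5.45 in the parental strain and 4.64, 4.77, 4.98 and 4.04 in the double deletion, apart on all arrays, and differed by -1.08 ± 0.20 (limma adjusted p = 0.00333). HYP2, its close copy used with oxygen, differed by -0.82 ± 0.19 (adjusted p = 0.0132), and the probe sets may each read both. AAC3, an ADP/ATP carrier, differed by -1.12 ± 0.32 (adjusted p = 0.0342). QDR2, a multidrug transporter, differed by -1.33 ± 0.25 (adjusted p = 0.00333), and COS9, of a subtelomeric family with close copies, by -1.24 ± 0.33 (adjusted p = 0.027).

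**Figure D4:**
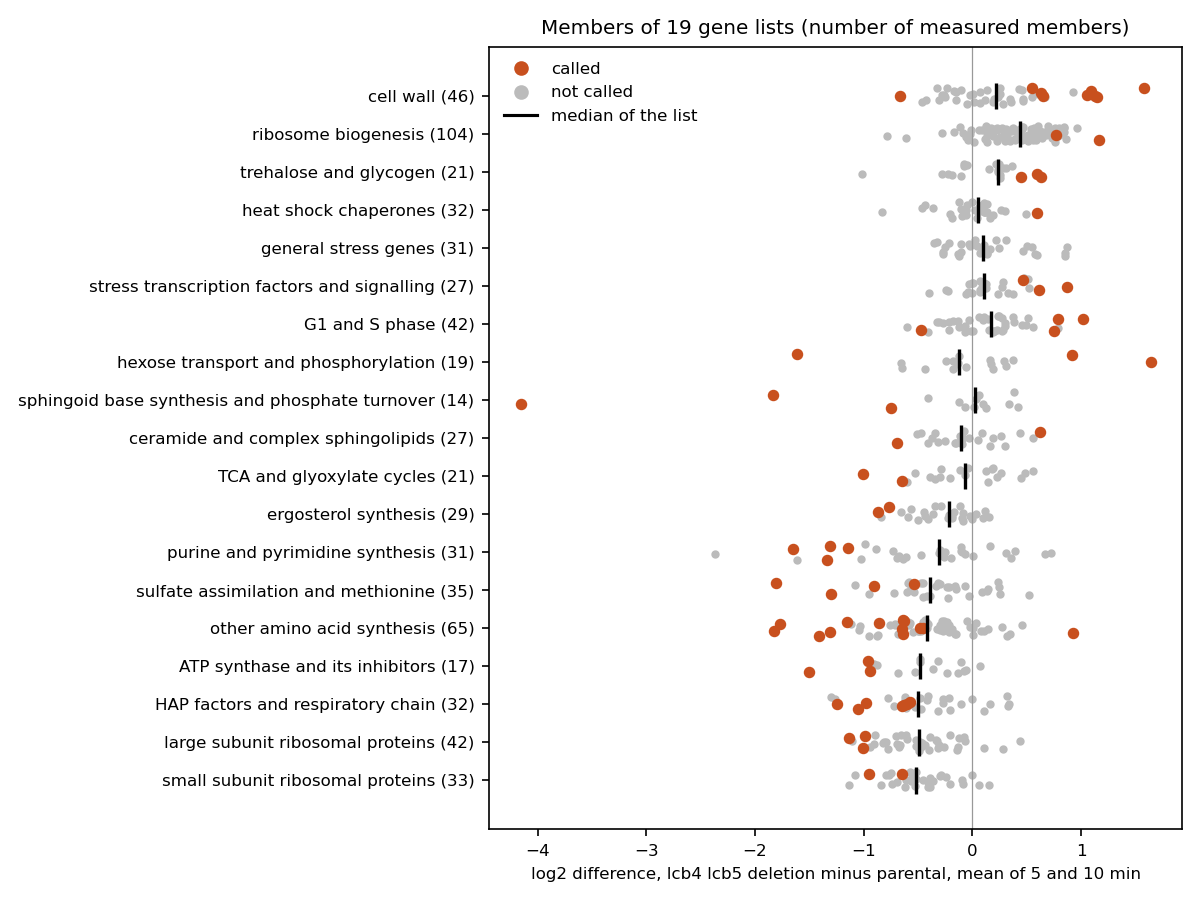
Log2 differences (x axis, double deletion minus parental, mean of 5 and 10 min) of the members of 19 gene lists, with called members in orange, other members in grey and the list median as a black bar; the vertical scatter within a list has no meaning. Medians run from 0.44 for ribosome biogenesis to -0.52 for the small subunit ribosomal proteins, and most members of each list are not called.

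Amino acid synthesis was the list with the most genes called lower, and here, as for purines, the replicates were unlike. Of 65 genes for amino acids other than methionine, 12 were called lower and 1 higher (3.22% and 3.93% of all genes), with medians of -0.18 in replicate 1 and -0.63 in replicate 2. Of 31 genes for purines and pyrimidines, 4 were called lower, with medians of -0.06 and -0.54, and of 35 genes for sulfate assimilation and methionine 4, with medians of -0.03 and -0.66. Without the double deletion's replicate 2 array at 10 min, 3, 0 and 0 of these were called, and without the one at 5 min 0, 0 and 0.

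SHM2, the cytosolic serine hydroxymethyltransferase that feeds one-carbon units to purines, shows the pattern. It read 8.21 and 8.0 in parental replicate 1 at 5 and 10 min, and 11.55 and 11.08 in parental replicate 2. The double deletion read 8.06 and 7.92 in replicate 1 and 8.10 and 7.69 in replicate 2, so that the strains differed by -0.12 in one replicate and by -3.42 in the other. The dpl1 strain read 8.34 and 7.85 in replicate 1 and 11.07 and 10.76 in replicate 2, close to the parental strain in both. The averaged difference was -1.77 ± 0.52 (limma adjusted p = 0.0389), and it was not called without the replicate block (adjusted p = 0.262).

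The same split held for ADE13, adenylosuccinate lyase, at -0.32 in replicate 1 and -2.97 in replicate 2, and for HIS4, of histidine synthesis, at -0.17 and -2.65. BNA4, an enzyme of NAD synthesis from tryptophan, gave -0.51 and -3.08, and ADE12, ADE8 and ADE6 gave -0.51, -0.45 and -0.01 in replicate 1 and -2.17, -2.16 and -2.27 in replicate 2. HIS1 and TRP2, the entry enzymes of histidine and tryptophan synthesis, differed in both replicates, by -0.75 and -1.55 and by -0.54 and -0.74. HIS3 gave -0.65 and -1.97, and LYS1 -0.44 and -1.28. CPA1, of arginine synthesis, was the one called higher, at 0.93 (picked after its values were seen).

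MET6, methionine synthase, read 7.04, 9.80, 6.59 and 7.49 in the parental strain and 6.86, 6.25, 5.73 and 4.85 in the double deletion. It differed by -1.81 ± 0.42 (limma adjusted p = 0.0119), at -0.53 in replicate 1 and -3.09 in replicate 2, and without the double deletion's replicate 2 array at 10 min its adjusted p was 0.0697. SAM2, S-adenosylmethionine synthetase, differed by -1.30 ± 0.27 (adjusted p = 0.00647, and 0.0552 without that array), HOM2, of the shared path to methionine and threonine, by -0.90 ± 0.20 (adjusted p = 0.00991), and MHT1, a methyltransferase that makes methionine, by -0.54 ± 0.17 (adjusted p = 0.0479). The ergosterol genes ERG28 and ERG26 differed by -0.87 and -0.77 and were the called members of 29, where 3.22% of all genes were called lower. CAN1, the arginine permease, was the called member of 20 amino acid permeases, at -0.69, with -0.04 in replicate 1 and -1.35 in replicate 2.

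The ribosome biogenesis and ribosomal protein lists had medians on opposite sides of 0, with few calls. Of 104 ribosome biogenesis genes, 93 values were positive with a median of 0.44 (0.34 and 0.51 in replicates 1 and 2). Of the same 104, 34 were apart between the strains at both times on the higher side, a larger share than the 8.52% of all genes. Of the 104, 2 were called higher, against 3.93% of all genes: UTP14, of the small subunit processome, at 1.17 ± 0.34 (limma adjusted p = 0.039), and DHR2, an RNA helicase, at 0.77 ± 0.23 (adjusted p = 0.039). REA1, an ATPase that matures the large subunit and is not in the list, differed by 1.13 ± 0.26 (adjusted p = 0.0105). Without the double deletion's replicate 2 array at 10 min, the adjusted p was 0.16 for UTP14, 0.153 for DHR2 and 0.0579 for REA1. UTP14 read 5.66, 5.67, 3.55 and 2.67 in the parental strain and 7.00, 7.05, 4.04 and 4.14 in the double deletion, so both strains read lower at 10 min than at 5 min, and both parental values at 10 min lie at or below the range of the deleted genes. All 104 genes were called lower in early heat than before heat in the parental strain, where 20.4% of all genes were, with a median of -2.45, and the median in the double deletion was -2.33. The members were chosen with earlier results of these data known, which may raise this count.

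Over all genes 3.22% were called lower. Of 42 large subunit protein genes measured, out of 76 listed, 3 were called lower, with a median difference of -0.50. Of 33 small subunit ones measured, out of 56 listed, 2 were, with a median of -0.52. The medians were -0.24 and -0.26 in replicate 1 and -0.73 and -0.73 in replicate 2. RPL13A, RPL14B and RPL21A differed by -1.13, -1.01 and -0.99, and RPS14A and RPS25A by -0.95 and -0.64. Most yeast ribosomal protein genes have a near-identical copy, which these probe sets may also read. Without the double deletion's replicate 2 array at 10 min the list medians were -0.35 and -0.31 and 0 of each list was called. RPS14A, for example, read 10.33, 10.06 and 9.80 on the other 3 double deletion arrays and 7.58 on that one, against 10.24 to 10.53 in the parental strain. The lists' median lengths were 805 and 723 bases, as gene lengths listed in RefSeq, which are not exact coding lengths for every gene. Among translation factors, HYP2, GCD11 (a subunit of eIF2) and CAF20 (a repressor of cap-dependent translation) were called lower, 3 of 48, against 3.22% of all genes. Of 91 tRNA genes 8 were called lower, against 3.22% of all genes. Their median difference was -0.49, at -0.73 in replicate 1 and -0.25 in replicate 2. The median tRNA reading itself ran from 5.74 to 8.10 over the 8 arrays.

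The heat shock response itself was present in both strains, with few differences between them. All 31 general stress genes were called higher in early heat in the parental strain, where 17.9% of all genes were, by a median of 3.17, and the double deletion's median was 3.10. Members of this and the other lists were chosen with earlier results of these data known, which may raise such counts. The strain difference of the 31 genes had a median of 0.10, at -0.16 in replicate 1 and 0.34 in replicate 2, and 0 of 31 were called. HSP12 read 12.23, 12.17, 13.16 and 13.08 in the parental strain and 11.86, 12.46, 12.90 and 13.29 in the double deletion, overlapping at each time. CTT1, the cytosolic catalase, read 9.47, 9.57, 10.37 and 10.89 and 9.44, 9.22, 10.41 and 11.42 in the same order. The differences were -0.03 ± 0.47 and 0.05 ± 0.20 for these 2 genes, which were picked after their values were seen.

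Of 32 heat shock chaperones, 27 were called higher in early heat in the parental strain, where 17.9% of all genes were. In the double deletion 24 were, where 993 of 5656 genes were. Between the strains 1 chaperone differed, against 7.14% of all genes. It was SSE2, a nucleotide exchange factor of Hsp70, at 0.60 ± 0.17 (limma adjusted p = 0.035), with 0.23 in replicate 1 and 0.97 in replicate 2. HSP104, HSP26 and SSA4 differed by 0.06 ± 0.19, 0.14 ± 0.38 and 0.11 ± 0.32, also picked afterwards. Over all genes 3.93% were called higher. Of 21 trehalose and glycogen genes, 3 were called higher: ATH1, the acid trehalase, at 0.63 ± 0.16, GDB1, the glycogen debranching enzyme, at 0.60 ± 0.18, and PIG1, a targeting subunit for the glycogen phosphatase, at 0.45 ± 0.13. Their adjusted p ranged from 0.0212 to 0.0415, the list's median coding length was 2118 bases, and with the trend on length removed 0 were called higher and 1 lower. Without the double deletion's replicate 2 array at 10 min, 0 of the trehalose and glycogen genes and 0 of the chaperones were called. TPS1 and TSL1, of trehalose synthesis and picked after their values were seen, differed by 0.25 ± 0.16 and 0.37 ± 0.18 and were not called.

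The counts of this paragraph stand beside 3.93% of all genes called higher and 3.22% called lower. Among 27 stress transcription factors and signalling genes 3 were called higher: SOK2, a regulator in the protein kinase A pathway, at 0.87 ± 0.20, TPK3, a catalytic subunit of that kinase, at 0.61 ± 0.18, and YAP1, the oxidative stress factor, at 0.46 ± 0.14 (limma adjusted p from 0.0108 to 0.047). YAP1 was also the called member of 28 oxidative stress genes. In iron uptake, FIT2, a wall protein that retains siderophores, and ENB1, a siderophore transporter, were called lower at -1.22 and -0.58, beside SMF1, in 31 genes. LHS1, an Hsp70 of the endoplasmic reticulum, was the called member of 23 genes for folding there, at 0.55, MRPS16 that of 65 mitochondrial ribosomal protein genes, at 0.79, and ATG39 and ATG29 those of 28 autophagy genes, at 0.66 and -0.59. For ATG29 all 4 double deletion arrays and 3 of the 4 parental ones read no higher than the deleted genes. The proteasome (36 genes), phosphate uptake (20), fatty acid and phospholipid synthesis (35), peroxisome (28) and daughter cell separation (14) lists had 0 called, with medians from -0.22 to 0.17.

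At single times fewer genes passed. At 5 min 35 genes were called (0.619%), 24 higher (0.424%) and 11 lower (0.194%), and at 10 min 22 (0.389%), 10 higher (0.177%) and 12 lower (0.212%). KDX1 was called at both, at 1.55 and 1.27, as were LCB4 and LCB5. NFG1, GSC2, RLM1, PDR15 and HO were called at 5 min, at 1.64, 1.47, 1.61, 1.52 and 1.48, and PIR3, SMF1, SMY1, SAM2, HYP2 and RPS14A at 10 min, at 2.01, 0.97, 0.94, -1.81, -1.29 and -1.79. Each of these values, with those of KDX1, LCB4 and LCB5, rests on 2 arrays a strain. Those at 10 min include the double deletion's replicate 2 array, which had the highest SRB4 value, 3.73. RPS14A read far lower on that array than on the other double deletion arrays. The counts moved when 1 array was left out, as given in the last section. Being called at one time does not show a difference between the times. The test of 10 min minus 5 min called 0 of 5656 genes by limma (0%), with 289 at an unadjusted p under 0.05 (5.11%) and a smallest adjusted p of 0.885. All 404 genes called over both times had the same sign at 5 and 10 min, as the choice by their mean favours.

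In unheated cells 10 genes were called (0.177%), 8 higher (0.141%) and 2 lower (0.0354%). GSC2 read 6.19 and 6.59 in the unheated parental strain and 8.05 and 8.22 in the double deletion, a difference of 1.75 ± 0.26 (limma adjusted p = 0.00102). KDX1, NFG1 and CRG1 differed there by 1.45, 1.35 and 1.97 (adjusted p from 0.00294 to 0.0181), beside 1.41, 1.26 and 1.50 in early heat. PIR3 read 4.79 and 5.01 in the parental strain and 5.17 and 5.42 in the double deletion before heat, a difference of 0.40 ± 0.33 that was not called.

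The early heat difference minus that before heat was called for 1 gene (0.0177%), LCB5, at -2.11 ± 0.35 (limma adjusted p = 0.0141), with 390 genes at an unadjusted p under 0.05 (6.9%). The double deletion reads LCB5 at the level of a deleted gene at every time, so this value restates the higher parental reading in heat. LCB5 was no longer called in 6 of the 12 fits that left out 1 of the early or unheated arrays. For KDX1, NFG1, CRG1 and GSC2 the same quantity was -0.04 ± 0.35, -0.09 ± 0.28, -0.46 ± 0.46 and -0.66 ± 0.32, and for PIR3 1.18 ± 0.41 (adjusted p = 0.578). The unheated parental array of replicate 1 enters this comparison and stands apart on a probe set with no listed gene. That probe set was picked, among those without a gene, for the widest gap between deletion and parental arrays. It read at least 11.83 on all 28 arrays of the deletion strains and at most 3.89 on the 4 early parental arrays. Against 3.21 in unheated parental replicate 2, it read 8.15 on the unheated parental array of replicate 1. Without that array 11 genes were called.

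**Figure D5:**
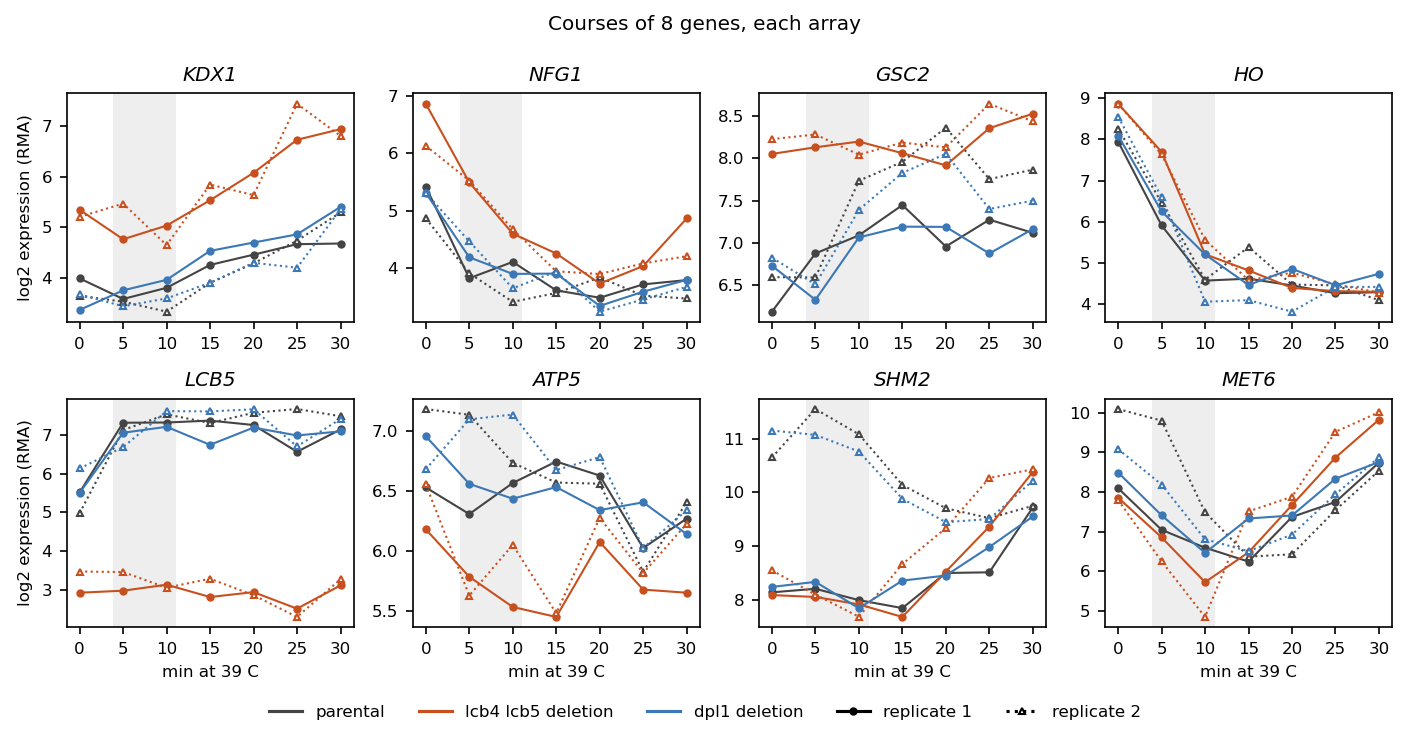
Log2 expression (y axis) of 8 genes on every array from before heat (0) to 30 min at 39 C (x axis, min) in the parental, lcb4 lcb5 and dpl1 strains, with solid lines and circles for replicate 1, dotted lines and open triangles for replicate 2, and 5 to 10 min shaded. KDX1 and GSC2 start higher in the double deletion, NFG1 and HO read lower at 10 min than at 0 in all strains, and the replicate 2 arrays of the parental and dpl1 strains stand apart for SHM2 up to 15 min.

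From 15 to 30 min 1364 genes were called (24.1%). This comparison draws on 16 arrays rather than 8. KDX1 differed by 1.84, against 1.41 in early heat, PIR3 by 1.06, GSC2 by 0.69, NFG1 by 0.50 and HO by -0.01. The early heat difference minus that at 15 to 30 min was called for 4 genes (0.0707%), all lower and all members of the sulfate assimilation and methionine list. SAM2 gave -2.17 ± 0.33 (limma adjusted p = 0.00352), MET17, which makes homocysteine, -1.59 ± 0.26 (adjusted p = 0.00501), MET6 -2.91 ± 0.51 (adjusted p = 0.0107) and MHT1 -1.06 ± 0.20 (adjusted p = 0.0317). MET6 was lower in the double deletion in early heat, at 6.55 and 5.29 against 8.42 and 7.04 at 5 and 10 min, and higher by 25 and 30 min, at 9.19 and 9.92 against 7.64 and 8.64. SAM2, MET17 and MHT1 differed by 0.87, 1.00 and 0.52 at 15 to 30 min, and in early heat by -1.30, -0.59 and -0.54. Without 1 array at a time the count ranged from 1 (without the parental array at 5 min in replicate 2, or the double deletion array at 10 min in replicate 2) to 93 (without the parental array at 5 min in replicate 1) and 96 (without the double deletion array at 10 min in replicate 1).

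The dpl1 strain lacks the lyase but keeps both kinases, and it stayed close to the parental strain in early heat: 1 gene was called (0.0177%), DPL1 itself, at -5.88. Against the dpl1 strain 282 genes were called in the double deletion (4.99%), 155 higher (2.74%) and 127 lower (2.25%). This comparison shares its 4 double deletion arrays with the one against the parental strain, so the calls are not independent. GSC2, CRG1, PIR3, KDX1 and NFG1 differed from the dpl1 strain by 1.34, 1.54, 1.47, 1.29 and 1.02, beside 1.09, 1.50, 1.58, 1.41 and 1.26 from the parental strain. The dpl1 strain minus the parental strain gave -0.25, -0.04, 0.11, 0.12 and 0.24 for these genes, none of them called.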

How the data were processed

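The values are log2 expression values per probe set, which the authors deposited after RMA (background correction, quantile normalisation and probe summary), per the submitters' processing notes. The version of RMA is not stated in any source used here, and the log base was inferred from the range, 1.36 to 14.7. Quantile normalisation removes a shift of all transcripts together. Of 9335 probe sets, 60 are controls. Of the rest, 6504 have 1 gene symbol in the platform annotation, 328 several and 2443 none. Where several probe sets name 1 of the 5656 genes (315 genes), the brightest on average stands for it, without a filter on dim signals. The number of arrays limits the precision.

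limma 3.58.1 in R 4.3.3 fitted 21 means of strain and time with the replicate number as a block (20 residual degrees of freedom), with two-sided tests, and summaries used Python 3.11.15. Same-numbered arrays deviated together from their group means: 209 of 210 combinations of groups correlated above 0.1 (lowest 0.0669, median 0.412), and all 6 among the 4 groups used here did (0.187 to 0.573). The block was therefore kept. Arrays of a group correlated at 0.942 to 0.980, so none was counted as a duplicate. Coding lengths were the gene lengths listed in RefSeq, of which 97.3% are divisible by 3, so some are not exact coding lengths.

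Named genes were the deleted genes, DPL1 and the markers. To these were added the 15 highest and 15 lowest called genes apart between strains at both times. Up to 4 called members of each of 33 lists, by smallest p, and up to 8 of each further comparison were added too. Others are marked. Members, lists and rule were chosen with earlier results of these data known. The fit was also run on simulated data with noise independent between arrays. Those data lack correlation within a course and unequal array quality, so they do not show how many calls here are false. No sequences or coordinates are given.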

Additional observations from a re-analysis of the deposited data

Results flagged for a closer look

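Differences that changed between times, by the test of that change, were those of MET6 (-2.91), SAM2 (-2.17), MET17 (-1.59) and MHT1 (-1.06) between early heat and 15 to 30 min. Each is a log2 difference of differences in limma. The same test from before to early heat called LCB5 (-2.11), a gene that is deleted in one strain, where it reads about the same at every time, so this value restates the higher parental level in heat. Under the same heat, 282 genes differed between the double deletion and the dpl1 strain. A probe set with no listed gene, outside the tested genes, read 8.15 in the unheated parental array of replicate 1 and 3.21 in replicate 2.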

How the results depend on the processing

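The counts rest on few arrays, and calls near the threshold are uncertain. For the early heat difference, 404 genes with the replicate block became 62 without it, 6 with the course as a random block, 2 in the 8 arrays alone, 2 with centring on the hybridisation controls, 79 at an adjusted p under 0.01, 182 with array weights and 239 with the length trend removed, an alternative chosen after seeing the data. Leaving out arrays gave 25 to 777. At 5 min, 35 became 6 without the replicate block, 64 with it within strains, 7 with the random block, 1 in the compared arrays alone, 1 with control centring, 6 at 0.01 and 3 to 242 without 1 array. At 10 min, 22 became 4, 96, 3, 1, 1 and 6 under the same settings, 7 with array weights, 12 with the length trend removed and 3 to 628 without 1 array. For 10 minus 5 min, leaving out arrays gave 0 to 69. For early heat minus before heat, 1 became 0 without the block, in the compared arrays alone, with control centring and at 0.01, and 0 to 11 without 1 array. For early heat minus 15 to 30 min, 4 became 17 with the random block, 1 in the compared arrays alone, 0 with control centring, 2 at 0.01 and 1 to 96 without 1 array. For the double deletion minus dpl1, 282 became 36 without the block, 9, 3, 3 and 62 under the random block, the compared arrays alone, control centring and 0.01, 128 with array weights, 181 with the length trend removed and 29 to 750 without 1 array. All 404 genes kept their sign in the settings that tested all of them, except 1 under the mean of a gene's probe sets and 1 in replicate 1 alone. Settings that change only the block, the spread or the threshold keep the estimates, so signs could not change there. Signs changed for uncalled DPL1 (-0.000586 with median centring, -0.0308 with the length trend removed, -0.0752 to 0.14 without arrays) and LEU2 (-0.025 with median centring, -0.19 with the mean of probe sets, -0.25 to 0.26 without arrays). Median centring, cyclic loess, a within-strain block, trend and robust moderation, the mean of a gene's probe sets, protein-coding genes alone and leaving out the dimmest 25% gave 309 to 558 for the early heat difference.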
